A study of Mus musculus with 12 samples.

Results

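Substance P and calcitonin gene-related peptide (CGRP) are made, sensed and broken down by a small set of gene products, of which 9 were followed here: the precursor gene Tac1, the receptor Tacr1, the CGRP precursor Calcb, the receptor chain Calcrl with its partners Ramp1 and Ramp2, the degrading enzymes Mme and Dpp4, and the amidating enzyme Pam. They were chosen by name for their role, with earlier results of these data in view, and are 9 of 18193 mouse genes that had an array probe set of their own. A probe set counted for a gene only if the platform annotation gave it that single symbol, which gave 18 probe sets for the 9 genes. Where a gene had several, it was represented by the probe set selected on the highest mean log2 signal over the 12 arrays, the only measured value the selection used. A further 2 probe sets listed for Ramp2 together with a second gene, Vps25, were left out.

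RNA came from whole lung of mice aged 8 to 10 weeks, taken 8 h after surgery, with 3 arrays in each of 4 groups: PPTA knockout after cecal ligation and puncture (CLP), PPTA knockout after sham surgery, wild type after CLP and wild type after sham surgery. CLP perforates the cecum and is a model of abdominal sepsis, sham surgery is its control, and PPTA is the former name of Tac1. Balb/c is the labelled strain of the wild type and none is labelled for the knockout, which means that strain and genotype cannot be told apart, and the labels do not state which part of Tac1 was disrupted or in which cells. They call the arrays of a group triplicates and do not state that each was a different animal, so p-values reflect only how far these arrays spread, which may be technical. The Tac1 signal went against the knockout label, as given below, and those mice are called knockout-labelled, or KO-labelled, throughout.

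Tac1 encodes the precursor of substance P, a peptide that sensory nerves release in the airways and that acts through Tacr1 on vessels, glands and leukocytes. CGRP is often released beside it and widens vessels. Calcrl becomes a CGRP receptor when paired with Ramp1 and an adrenomedullin receptor when paired with Ramp2 or Ramp3, and lung endothelium is rich in the second kind. Both peptides need an amide at their carboxyl end to be fully active, which Pam adds, and substance P is cut by the cell-surface enzymes Mme (neprilysin) and Dpp4.

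Tac1 and Pam were the members higher in KO-labelled lung, and Calcrl was the member with the largest fall after CLP there, so the sequences just before the start of these 3 genes are shown. They come from RefSeq, build GRCm38.p6, were not read from these mice, and start from 1 annotated start of each gene. Each runs 5′ to 3′ on the strand of its gene over the 250 bases upstream of the start: Tac1 at chr6:7554811-7555060 on the plus strand, Pam at chr1:98095647-98095896 on the minus strand and Calcrl at chr2:84425267-84425516 on the minus strand. Capitals mark matches on either strand to any of 5 motifs: TATAAA of the TATA box, the cAMP response core TGACG, the CCAAT box, the GC box GGGCGG, and the E box in its form CACGTG.
Tac1: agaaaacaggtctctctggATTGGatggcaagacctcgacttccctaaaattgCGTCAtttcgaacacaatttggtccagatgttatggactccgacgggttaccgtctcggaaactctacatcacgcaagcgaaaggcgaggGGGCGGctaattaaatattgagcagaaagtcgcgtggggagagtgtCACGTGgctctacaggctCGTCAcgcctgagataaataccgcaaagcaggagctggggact
Pam: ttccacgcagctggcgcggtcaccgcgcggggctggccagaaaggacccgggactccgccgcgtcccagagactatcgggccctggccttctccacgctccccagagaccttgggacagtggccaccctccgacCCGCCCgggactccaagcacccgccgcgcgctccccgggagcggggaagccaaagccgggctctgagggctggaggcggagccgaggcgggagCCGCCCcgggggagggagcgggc
Calcrl: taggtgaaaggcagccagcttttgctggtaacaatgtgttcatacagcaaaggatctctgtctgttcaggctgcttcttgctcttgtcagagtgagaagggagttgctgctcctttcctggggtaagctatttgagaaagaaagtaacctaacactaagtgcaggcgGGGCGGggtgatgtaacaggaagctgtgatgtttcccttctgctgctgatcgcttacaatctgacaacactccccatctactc
The Tac1 sequence held 2 matches to TGACG, 1 to CCAAT, 1 to GGGCGG and 1 to CACGTG, that of Pam 2 to GGGCGG, and that of Calcrl 1 to GGGCGG. Over 27025 mouse promoters of the same length, TATAAA was found in 13%, TGACG in 17.9%, CCAAT in 34.5%, GGGCGG in 32.9% and CACGTG in 6.05%. GC content was 51.2% for Tac1, 75.6% for Pam and 48.4% for Calcrl. No match was shared by all 3 sequences except GGGCGG, a common motif, and a match is a description of letters, not evidence of a bound site. A promoter entry was matched for 7 of the 9 genes.

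Each array came scaled to the same mean, and the array median signals ran from 31.1 to 38.6 units. Markers of lung tissue were present on every array: the 8 alveolar type 2 markers measured summed to 45200 to 52190 in KO-labelled CLP, 44520 to 50300 in KO-labelled sham, 50340 to 52330 in wild-type CLP and 50140 to 52670 in wild-type sham, and none of the 8 alveolar type 1, 8 type 2 or 6 club cell markers measured was below the array median throughout. Arrays of a group correlated at 0.952 to 0.973 in KO-labelled CLP, 0.937 to 0.981 in KO-labelled sham, 0.985 in wild-type CLP and 0.983 to 0.985 in wild-type sham. Array 3 of KO-labelled sham stood apart, with 712 probe sets at least 2-fold over both other arrays of its group and 871 at least 2-fold under both. The same counts were not made for other arrays. Array 1 of KO-labelled CLP also departed from its group for Calcrl, Ramp2 and Ramp3, with values given below. Calls that rested on array 3 of KO-labelled sham are given with and without it. Markers of several cell types also differed: the 8 neutrophil markers measured summed to 31480 to 34770 in KO-labelled CLP, 10180 to 26410 in KO-labelled sham, 32610 to 35540 in wild-type CLP and 8567 to 14830 in wild-type sham. The 9 cardiac muscle markers summed to 4088 to 7540 in KO-labelled CLP, 9508 to 14770 in KO-labelled sham, 3321 to 4119 in wild-type CLP and 3324 to 4018 in wild-type sham. Their part in the results below was not tested. In whole tissue, fewer cells of a type and less RNA per cell cannot be told apart.

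**Figure D1:**
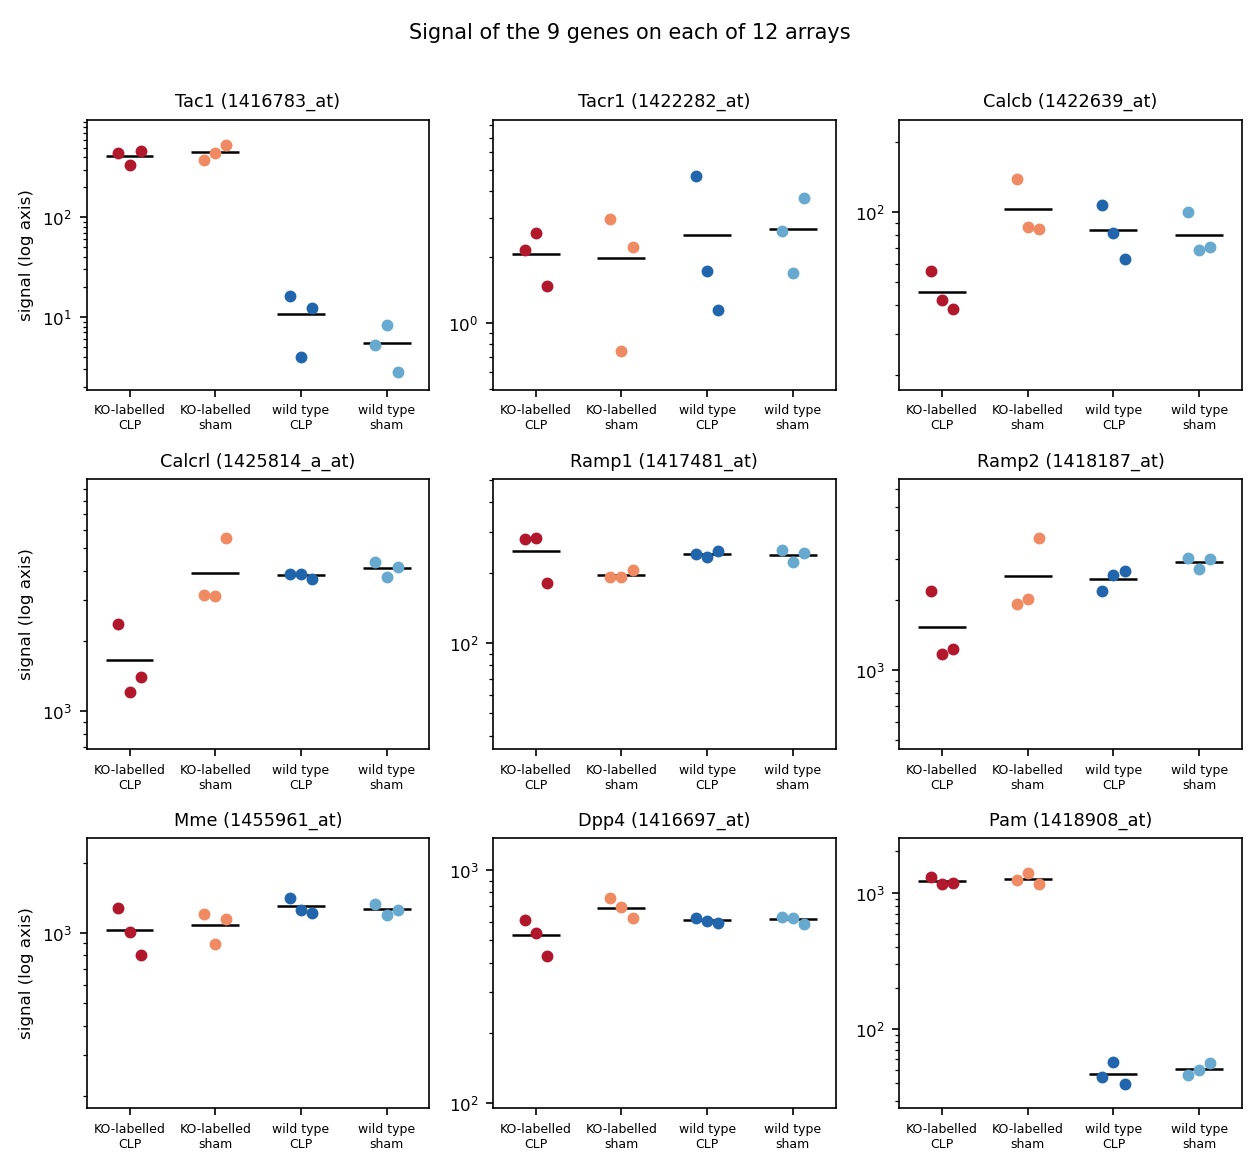
Deposited signal of the representative probe set of each of the 9 genes on a log axis, with 1 point per array, 3 arrays per group, and bars for the group means. Tac1 and Pam separate the 6 KO-labelled arrays from the 6 wild-type arrays, Calcb and Calcrl are low in KO-labelled CLP, and Tacr1 lies under 5 units on all 12 arrays.

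Of the 9 genes, 8 had a representative probe set above the array median on at least 3 arrays and were tested, among 11853 such genes. After CLP in KO-labelled lung, 4 of the 8 were called, all lower than after sham (Calcb, Calcrl, Ramp2 and Dpp4), where a call is an adjusted p under 0.05 over all 24540 probe sets tested. Of all genes tested, 19.9% were called lower in that comparison and 11.4% higher, so lower calls were common. After CLP in wild-type lung none of the 8 was called and none had an unadjusted p under 0.05, against 1.11% of all genes called higher and 0.0591% called lower. Between genotypes after CLP, 5 of the 8 were called, with Tac1 and Pam higher in KO-labelled lung and Calcb, Calcrl and Ramp2 lower, where 13% of all genes were called higher and 18.8% lower. Between genotypes after sham, 2 were called, Tac1 and Pam, both higher, where 4.87% of all genes were called higher and 3.89% lower. Tac1 was tested only because its 6 KO-labelled arrays passed the filter, so nothing is read from its share in the genotype counts. With a filter of 9 arrays, which leaves Tac1 out, the counts between genotypes were 4 after CLP and 1 after sham. The test of whether the CLP response itself differed between genotypes called none of the 8 (3 had an unadjusted p under 0.05: Calcb, Calcrl and Dpp4), where 1.86% of all genes were called on the higher side and 3.13% on the lower. The comparisons share groups, so a low value in KO-labelled CLP enters 3 of them. Since the genes were chosen with results known, these calls are no independent support for one another.

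How many genes fell in the CLP response of KO-labelled lung turned on the scaling of the arrays. As deposited, 1356 genes were called higher and 2359 lower; with each array centred on its median, 2815 were higher and 1101 lower, since the array medians were 31.1 to 33.3 in KO-labelled CLP and 37.8 to 38.6 in KO-labelled sham. Centring moved the median difference of all genes to 0.114 on the log2 scale, against -0.111 as deposited. It left the falls of Calcrl (-1.02, adjusted p = 0.00508) and Calcb (-0.88, adjusted p = 0.0144) called, and not those of Ramp2 (-0.50, adjusted p = 0.129) and Dpp4 (-0.18, adjusted p = 0.287). Centring also turned the split of 2 other comparisons: between genotypes after sham it gave 450 genes higher and 692 lower, against 577 and 461 as deposited, and for the difference of responses 362 and 221, against 220 and 371. Between genotypes after CLP and for CLP in wild type the larger side stayed the same.

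**Figure D2:**
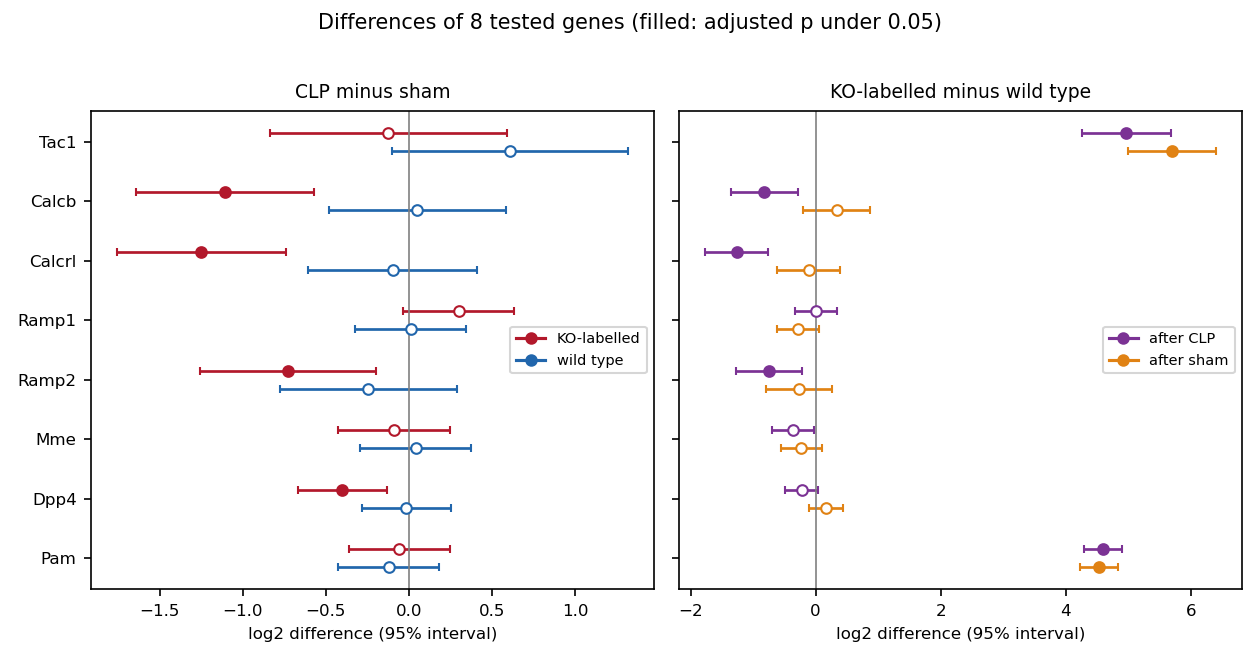
Log2 differences (signal plus pseudocount) with 95% confidence intervals for the 8 genes tested, CLP minus sham on the left and KO-labelled minus wild type on the right, with filled points for an adjusted p under 0.05. Tac1 and Pam lie between 4.5 and 5.7 in both genotype comparisons, and Calcb, Calcrl, Ramp2 and Dpp4 lie below 0 for CLP in KO-labelled lung.

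Among the ligands, Tac1 was measured by 2 probe sets, and the brighter one was high in all 6 KO-labelled arrays. Its signal was 441.7, 336.8 and 461.6 in KO-labelled CLP, and 379.5, 441.4 and 530.3 in KO-labelled sham. In wild type it was 16.1, 3.95 and 12.4 after CLP, and 5.25, 8.34 and 2.80 after sham, below the array median on every array. The genotype groups did not overlap, and within each genotype the CLP and sham arrays did. The log2 difference between KO-labelled and wild-type lung was 4.97 ± 0.33 after CLP and 5.70 ± 0.33 after sham (SE), set against a wild-type signal near background, and is given as a description. Tac1 passed the filter on low signals only through the 6 KO-labelled arrays, so a difference was built into its being tested, and nothing is read from the count it adds.

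CLP moved Tac1 in neither genotype beyond its error: the log2 difference from sham was -0.12 (95% interval -0.83 to 0.59) in KO-labelled lung and 0.61 (-0.10 to 1.32) in wild type, where both groups were dim. The second Tac1 probe set, 1431883_at, lay between 1.27 and 16.0 on all 12 arrays, overlapped between genotypes and was not tested. The labels do not place either probe set against the allele that was made, so the signal describes the transcript that 1416783_at binds and not the peptide. Of 15 neuron and sensory nerve markers measured, 12 were below the array median on all arrays, and the 15 summed to 403.5 to 796.1 in KO-labelled CLP and 725.6 to 800.6 in KO-labelled sham, against 983.3 to 1094 in wild-type CLP and 1072 to 1122 in wild-type sham. Most of this sum was Stmn2 (373.8 in KO-labelled CLP, 476.8 in KO-labelled sham, 736.4 in wild-type CLP and 787.7 in wild-type sham, means). Of the 3 markers tested none was called between genotypes after sham. After CLP 1 of them, Stmn2, was called lower in KO-labelled lung (log2 difference -1.06, adjusted p = 0.00521), where 18.8% of all genes were called lower. The part of these markers in the Tac1 result was not tested.

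Calcb, the precursor of the beta form of CGRP, was lowest in KO-labelled CLP, at 55.7, 41.9 and 38.5, against 138.5, 86.0 and 85.0 in KO-labelled sham. Wild-type values were 106.8, 81.0 and 63.2 after CLP, and 99.9, 69.0 and 70.9 after sham. The 3 KO-labelled CLP arrays lay below all 9 others, and the other 3 groups overlapped. Calcb fell after CLP in KO-labelled lung by 1.11 on the log2 scale (SE 0.25, adjusted p = 0.00591), a call that held with each of the 12 arrays left out in turn. In wild type the difference was 0.05 (95% interval -0.48 to 0.59). KO-labelled CLP lung was also lower than wild-type CLP lung, by a log2 difference of -0.82 ± 0.25 (SE, adjusted p = 0.0248). That call was lost without KO-labelled CLP array 2 or 3 or wild-type CLP array 1 or 2, with adjusted p-values up to 0.106. The difference between the 2 CLP responses was -1.16 (95% interval -1.91 to -0.40, adjusted p = 0.0771), and it was called without KO-labelled CLP array 1 or without the sham array that stood apart (-1.27, adjusted p = 0.0359).

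Tacr1, the receptor that binds substance P, had no usable signal in this tissue. Its 1 probe set lay between 0.744 and 4.71 on all 12 arrays, far below every array median, so it was not tested and no order of the groups can be read. Whether the lung cells that carry the receptor changed its transcript was not detectable with this probe set.

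Calcrl, the receptor chain shared by CGRP and adrenomedullin, showed the largest fall of the 9 genes after CLP in KO-labelled lung. Its representative probe set read 2373, 1211 and 1397 in KO-labelled CLP, against 3154, 3115 and 5508 in KO-labelled sham. Wild-type lung read 3894, 3894 and 3680 after CLP, and 4379, 3746 and 4169 after sham. The 3 KO-labelled CLP arrays were below all 9 others, while the other 3 groups overlapped. The group means were 1660 ± 624 in KO-labelled CLP, 3926 ± 1370 in KO-labelled sham, 3823 ± 123 in wild-type CLP and 4098 ± 322 in wild-type sham (SD, n = 3 each).

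Calcrl fell after CLP in KO-labelled lung by 1.25 on the log2 scale (SE 0.23, adjusted p = 0.00237), a 2.38-fold fall on the scale of signal plus pseudocount, and the call held with each array left out. Without the sham array that stood apart the log2 difference was -0.98 (adjusted p = 0.00315). In wild type the CLP difference was -0.10 (95% interval -0.61 to 0.41), and the responses are compared by the test of their difference, given below. Between genotypes after CLP, KO-labelled lung was lower by a log2 difference of -1.26 ± 0.23 (SE, adjusted p = 0.00202), and after sham the difference was -0.11 (95% interval -0.62 to 0.40). The test of the difference between responses gave -1.15 (95% interval -1.87 to -0.43, adjusted p = 0.0694), so a response particular to one genotype was not shown, and the value was called only without KO-labelled CLP array 1 among the fits that left out an array.

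The 2 other Calcrl probe sets differed from the representative one in part. The second, 1418489_a_at, read 255.7, 188.0 and 133.6 in KO-labelled CLP, against 456.5, 338.3 and 1216 in KO-labelled sham, and 408.3 to 495.7 on the 6 wild-type arrays. It too was lowest in KO-labelled CLP on all 3 arrays (log2 difference from sham -1.61, adjusted p = 0.00608; from wild-type CLP -1.23, adjusted p = 0.0216). The third, 1459536_at, was dim in wild type, at 4.10 to 21.8 on the 6 arrays, and read 55.0, 20.9 and 11.7 in KO-labelled CLP and 97.4, 87.8 and 358.3 in KO-labelled sham. It was above the array median on 4 arrays only, all KO-labelled, so it passed the filter through them and its values are given with no test. Without array 3 of KO-labelled sham, 1418489_a_at was still called lower after CLP in KO-labelled lung (-1.07, adjusted p = 0.00278) and lower than in wild-type CLP (-1.23, adjusted p = 0.000490). With the mean of the 3 in place of the brightest, the genotype difference after CLP was no longer called (-0.63, adjusted p = 0.211). That mean includes 1459536_at, which passed the filter only through KO-labelled arrays and whose log2 difference was 0.62 in that comparison. The representative probe set and 1418489_a_at gave -1.26 and -1.23 there.

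Of the partner chains, Ramp2 moved with Calcrl and Ramp1 did not. Ramp2, which makes Calcrl an adrenomedullin receptor, read 2173, 1174 and 1228 in KO-labelled CLP, against 1927, 2018 and 3665 in KO-labelled sham, and in wild type 2189, 2542 and 2670 after CLP and 3014, 2723 and 3006 after sham. Array 1 of KO-labelled CLP lay within the range of its sham group, so these groups overlapped, while the KO-labelled CLP arrays lay below all wild-type CLP arrays. The log2 difference after CLP in KO-labelled lung was -0.73 ± 0.25 (SE, adjusted p = 0.0414), and between genotypes after CLP it was -0.75 ± 0.25 (SE, adjusted p = 0.0367).

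Both Ramp2 calls were fragile. The CLP call held in 3 of the 12 fits that left out 1 array, those without KO-labelled CLP array 1 or KO-labelled sham array 1 or 2. Without the sham array that stood apart it was -0.43 (adjusted p = 0.118), and the highest adjusted p was 0.153, without KO-labelled CLP array 2. The genotype call held in 5 of 12 fits, and was lost without KO-labelled CLP array 2 or 3, any wild-type CLP array, or wild-type sham array 1 or 3. In wild type the CLP arrays were all below the sham arrays, with a difference of -0.24 (95% interval -0.78 to 0.29) that was not called.

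Ramp1, which makes Calcrl a CGRP receptor, read 279.9, 280.5 and 179.9 in KO-labelled CLP, against 190.8, 191.3 and 204.9 in KO-labelled sham, and 222.2 to 249.4 on the 6 wild-type arrays. No comparison of it was called. The CLP difference in KO-labelled lung was 0.30 (95% interval -0.03 to 0.64, adjusted p = 0.159), with array 3 below and arrays 1 and 2 above the sham arrays, and it was called when arrays were centred (0.53, adjusted p = 0.0230) or without array 3. In wild type it was 0.01 (95% interval -0.32 to 0.35). The 2 other Ramp1 probe sets lay between 0.521 and 28.6 on all arrays and were not tested.

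Ramp3, the other partner of Calcrl in adrenomedullin receptors and no member of the 9, moved the opposite way to Calcrl and Ramp2. It read 324.9, 753.8 and 722.9 in KO-labelled CLP, against 122.6, 98.9 and 111.0 in KO-labelled sham, with no overlap. In wild type it read 222.4, 253.3 and 247.7 after CLP, and 119.9, 210.9 and 145.6 after sham, again with no overlap. It rose after CLP in KO-labelled lung by 2.31 on the log2 scale (SE 0.28, adjusted p = 0.000200), while the difference in wild type was 0.63 ± 0.28 (SE, adjusted p = 0.560). Between genotypes after CLP it was higher in KO-labelled lung, by 1.21 ± 0.28 (SE, adjusted p = 0.00683). The difference between the 2 CLP responses was 1.68 ± 0.40 (SE, adjusted p = 0.0365), a call that held among fits leaving out 1 array only without KO-labelled CLP array 1 or KO-labelled sham array 3 and otherwise reached an adjusted p of 0.0944.

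Endothelial markers were set beside these receptor chains, since lung endothelium expresses them. The 14 markers summed to 15640 to 16290 in KO-labelled CLP, 15100 to 16530 in KO-labelled sham, 18930 to 19500 in wild-type CLP and 18650 to 19530 in wild-type sham, and none was below the array median throughout. Their mean log2 value against wild-type sham was -0.34 to -0.41 in KO-labelled CLP and -0.19 to -0.31 in KO-labelled sham, a smaller gap between the surgeries than that of Calcrl. After CLP in KO-labelled lung 1 of the 14 was called higher (Esam) and 4 lower (Kdr, Tek, Tie1 and Egfl7), with a median log2 difference of -0.12, against -0.11 over all genes tested. Of all genes, 11.4% were called higher and 19.9% lower there. Kdr and Tek are both receptors of endothelial growth factors. The fall of Kdr (1.27 on the log2 scale) was of a size near that of Calcrl (1.25), and that of Tek (0.85) was smaller. The differences of Pecam1 (0.14) and Cdh5 (0.34), which hold endothelial cells together, were above 0 and not called. Against wild-type CLP lung 2 were higher and 6 lower, with a median of -0.29, against -0.06 over all genes. In that comparison 13% of all genes were called higher and 18.8% lower. On KO-labelled sham array 3 Calcrl was 1.76 times and Ramp2 1.86 times the mean of the other 2 arrays. The marker mean was -0.31 on that array, against -0.26 and -0.19 on arrays 1 and 2. The part of endothelial markers in the Calcrl, Ramp2 and Ramp3 values was not tested.

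**Figure D3:**
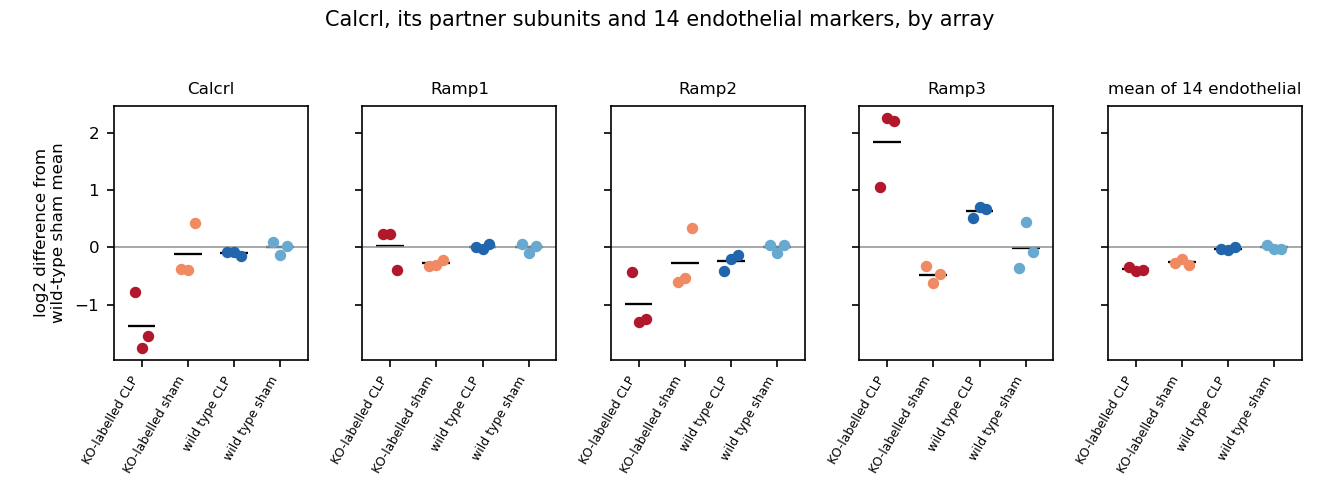
Log2 difference of each array from the wild-type sham mean for Calcrl, Ramp1, Ramp2, Ramp3 and the mean of 14 endothelial markers, with 1 point per array and bars for group means. In KO-labelled CLP, Calcrl lies between -0.78 and -1.75 and Ramp2 between -0.42 and -1.31, Ramp3 between 1.06 and 2.26, and the endothelial mean between -0.34 and -0.41.

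Of the enzymes that break the peptides down, Mme, which cuts substance P and many other small peptides, did not pass the test in any comparison. Its representative probe set read 1277, 1007 and 799.8 in KO-labelled CLP and 1206, 894.6 and 1149 in KO-labelled sham, against 1414, 1257 and 1219 in wild-type CLP and 1334, 1187 and 1256 in wild-type sham. KO-labelled arrays tended to the lower end and overlapped the wild type after both surgeries. The CLP difference was -0.09 (95% interval -0.42 to 0.25) in KO-labelled lung and 0.04 (-0.29 to 0.38) in wild type. The genotype difference after CLP was -0.36 (95% interval -0.69 to -0.02), which was not called after adjustment, and the second probe set gave -0.03 (-0.52 to 0.45) for the same comparison.

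Dpp4, which removes dipeptides from the amino end of peptides, was lower after CLP in KO-labelled lung. Its representative probe set read 607.5, 538.3 and 428.5 in KO-labelled CLP, against 759.4, 690.6 and 618.6 in KO-labelled sham, and 586.9 to 630.2 on the 6 wild-type arrays. The KO-labelled groups did not overlap with each other, and the wild-type arrays lay between and across them. The log2 difference after CLP was -0.40 ± 0.12 in KO-labelled lung (SE, adjusted p = 0.0284) and -0.02 (95% interval -0.28 to 0.25) in wild type. The call was lost without array 2 or 3 of KO-labelled CLP or array 1 or 2 of KO-labelled sham, with adjusted p-values up to 0.102, and the difference between responses was not called (-0.39, adjusted p = 0.213). Between genotypes it was not called after CLP (-0.22, adjusted p = 0.194) or after sham (0.16, adjusted p = 0.476).

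Dpp4 had 4 probe sets, and 1 of them separated the genotypes after both surgeries. Probe set 1459973_x_at read 45.3, 27.0 and 33.7 in KO-labelled CLP and 40.9, 57.1 and 44.2 in KO-labelled sham, against 263.4, 264.0 and 244.0 in wild-type CLP and 248.6, 242.6 and 271.9 in wild-type sham. The genotypes were far apart and did not overlap, with a log2 difference of -2.77 after CLP (adjusted p = 8.43e-07) and -2.35 after sham (adjusted p = 3.98e-06). Relative to the representative probe set on the same array, it stood at 5.01% to 8.27% on the KO-labelled arrays and at 38.9% to 46.3% on the wild-type arrays. The suffix x marks a probe set with probes that may also bind other transcripts. Whether a sequence difference under the probes, another transcript or the Dpp4 transcript itself differed was not tested.

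Both other probe sets were also called lower after CLP in KO-labelled lung. Probe set 1438279_at fell after CLP in KO-labelled lung by 0.98 on the log2 scale (adjusted p = 0.00395), with 52.6 to 92.8 after CLP against 125.1 to 152.8 after sham. In wild type it read 78.3 to 103.3 after CLP against 113.5 to 154.2 after sham, groups that did not overlap, and the difference of -0.55 was not called (adjusted p = 0.378). Probe set 1441342_at fell by 0.76 (adjusted p = 0.00956), with 66.3 to 119.2 after CLP against 153.1 to 175.3 after sham. It was also called lower in KO-labelled CLP than in wild-type CLP, where it read 133.0 to 142.9 (log2 difference -0.53, adjusted p = 0.0492), and those groups did not overlap. In both the KO-labelled surgery groups did not overlap, and the genotypes after sham were not called apart. With the mean of the Dpp4 probe sets in place of the brightest, the genotype difference after CLP was called (-0.95, adjusted p = 0.000272), and that after sham was not (-0.45, adjusted p = 0.0501). That mean includes 1459973_x_at, which alone gave -2.77 after CLP and -2.35 after sham. The representative probe set, 1438279_at and 1441342_at gave -0.22, -0.28 and -0.53 after CLP. After sham they gave 0.16, 0.14 and 0.27, the opposite sign to the mean.

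**Figure D4:**
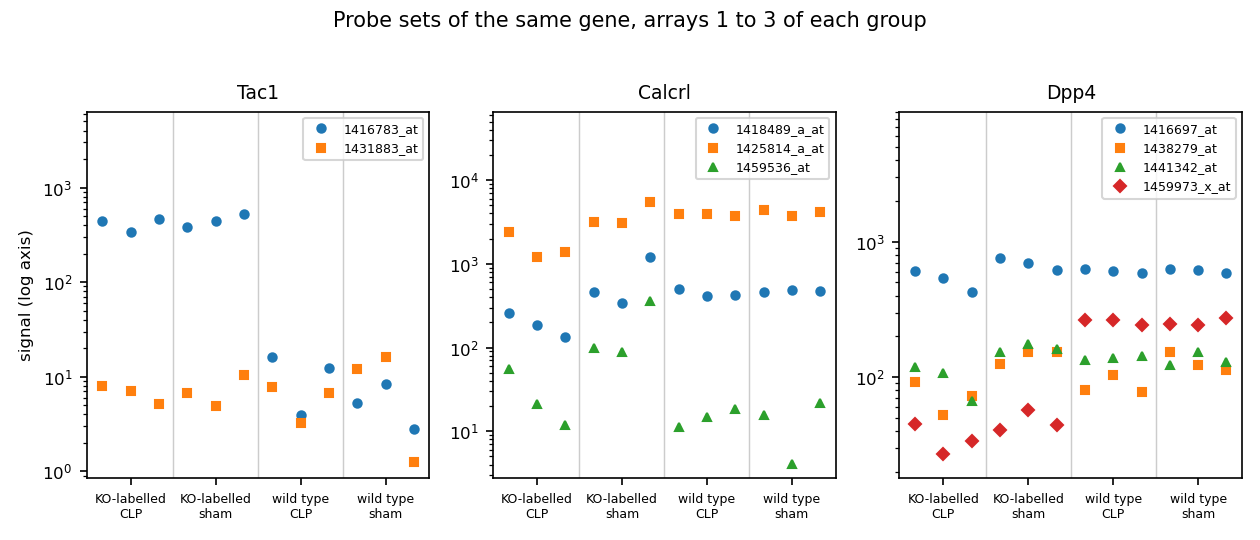
Deposited signal on a log axis of every probe set of Tac1, Calcrl and Dpp4, with 1 point per array and arrays 1 to 3 from left to right in each group. One Tac1 probe set and one Dpp4 probe set (1459973_x_at) split the genotypes in opposite directions, and the other probe sets of these genes do not split them in the same way.

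Pam, the enzyme that amidates substance P, CGRP and many other peptides, had the smallest p of all 11853 genes in both genotype comparisons. Its single probe set read 1305, 1152 and 1179 in KO-labelled CLP and 1237, 1388 and 1161 in KO-labelled sham, against 44.5, 57.2 and 39.5 in wild-type CLP and 46.4, 50.1 and 56.6 in wild-type sham. The genotypes were separated by a wide gap, and surgery made no visible difference within either. The log2 difference between KO-labelled and wild-type lung was 4.60 ± 0.14 after CLP (SE, adjusted p = 8.04e-10) and 4.54 ± 0.14 after sham (SE, adjusted p = 9.57e-10), folds of 24.3 and 23.2. CLP differences were -0.06 (95% interval -0.36 to 0.25) in KO-labelled and -0.12 (-0.42 to 0.18) in wild-type lung. Pam has 1 probe set of its own here, so the size of its difference was not checked by a second. Alveolar macrophage markers also differed with genotype after CLP. The 8 measured summed to 9169 to 10120 in KO-labelled CLP, against 3346 to 3527 in wild-type CLP. After sham the sums overlapped, at 3352 to 10160 in KO-labelled lung and 3134 to 3584 in wild type. The mean log2 value of these markers against wild-type sham was 0.48 and 0.45 on KO-labelled sham arrays 1 and 2. On array 3 of that group it was above the 1.51 to 1.92 of KO-labelled CLP, while Pam was lowest of the group there (1161). The part of these markers in the result was not tested.

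Pam was also among the genes whose pattern was most like that of Tac1. Over the 12 arrays the 5 highest Pearson correlations of log2 values with Tac1, of 11852 genes compared, were those of H2-D1 (0.994), H2-K1 (0.991), Ly6e (0.987), Mcm6 (0.982) and Pam (0.978). H2-D1 and H2-K1 encode class I histocompatibility chains, which show peptides to T cells. Their signals were higher in KO-labelled than in wild-type lung by less than Tac1: H2-D1 averaged 8173 in KO-labelled CLP and 8332 in KO-labelled sham, against 5127 in wild-type CLP and 4899 in wild-type sham. The probe sets of H2-D1 and H2-K1 carry the suffix x, and that of Ly6e another shared-sequence suffix, so they may also bind other transcripts. Each of these correlations rests on the step between genotypes that the arrays share. For Calcrl the 5 highest were Sdhaf4 (0.983), Sox17 (0.982), a transcription factor of endothelium, Kank3 (0.977), Ahr (0.977) and Prrg1 (0.969), and Ramp2 ranked 20th (0.952). Kank3 averaged 165.3 in KO-labelled CLP, 482.1 in KO-labelled sham, 455.2 in wild-type CLP and 606.0 in wild-type sham, with the same low group as Calcrl.

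Wider lists of the same pathways, chosen by function with earlier results of these data known, gave the setting. Of 17 tachykinin and CGRP ligands and receptors, 16 were measured and 9 tested. Of these 9, 1 rose (Ramp3) and 3 fell (Calcb, Calcrl and Ramp2) after CLP in KO-labelled lung, with a median log2 difference of -0.15, against -0.11 over all genes. Of all genes, 11.4% were called higher and 19.9% lower there. With the arrays centred on their medians, 3 of the 9 were called higher and 2 lower after CLP in KO-labelled lung. Centring gave 2815 genes higher and 1101 lower over all genes. None of the 9 was called after CLP in wild type. Set against wild type after CLP, 3 were higher (Tac1, Ramp3 and Calcr) and 3 lower, where 13% of all genes were called higher and 18.8% lower. Tac1 was tested only through its KO-labelled arrays. Calcr, the calcitonin receptor, averaged 67.1 ± 9.22 in KO-labelled CLP and 39.9 ± 3.93 in wild-type CLP (SD, n = 3 each), a log2 difference of 0.70 ± 0.20 (SE, adjusted p = 0.0209). That call was lost without array 1 or 2 of either CLP group. The other substance P relatives and receptors on the list, Tac2, Tac4, Tacr2 and Tacr3, were below the array median on all arrays.

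Of 18 measured peptide-degrading enzymes, 12 were tested, and after CLP in KO-labelled lung 6 fell and none rose, with a median of -0.39 on the log2 scale. Of all genes tested, 19.9% were called lower and 11.4% higher in that comparison, with a median of -0.11. The 4 with the smallest p were Ide, Ace, Dpp4 and Anpep, and the others were Nln and Thop1. Ide, the insulin-degrading enzyme, averaged 319.4 ± 13.4 in KO-labelled CLP and 471.6 ± 24.8 in KO-labelled sham (SD, n = 3 each), a fall of 0.56 (adjusted p = 0.00149). Ace, which converts angiotensin and also cuts substance P, averaged 507.9 ± 62.6 in KO-labelled CLP and 778.3 ± 163.9 in KO-labelled sham, a fall of 0.60 (adjusted p = 0.00807) that was not called with the arrays centred on their medians (-0.37, adjusted p = 0.0565) or with only the 2 groups compared (adjusted p = 0.0661). It was lower than in wild-type CLP as well, where it averaged 1243 ± 93.3 (SD, n = 3; log2 difference -1.29, adjusted p = 6.65e-05). After sham Ace was also lower in KO-labelled lung, at 679.1 to 967.4 against 1011 to 1211 in wild type (log2 difference -0.52, adjusted p = 0.0389). That sham call held in 3 of the 12 fits that left out 1 array. Anpep, an aminopeptidase, averaged 53.5 ± 15.0 in KO-labelled CLP and 90.3 ± 24.5 in KO-labelled sham (SD, n = 3 each), a log2 difference of -0.71 (adjusted p = 0.0352) that was lost without array 2 or 3 of KO-labelled CLP or array 1 or 2 of KO-labelled sham, and with the arrays centred, quantile normalised or without the other groups. The count that fell after CLP in KO-labelled lung was 3 with quantile normalisation and 1 with centring. Between genotypes after CLP 5 of the 12 were lower (Ace, Anpep, Enpep, Prep and Thop1) and none higher, where 18.8% of all genes were called lower and 13% higher. In wild type none of the 12 was called after CLP.

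Of 16 measured peptide-processing enzymes and granins, 8 were tested. Furin, a convertase that cuts precursors, averaged 474.7 ± 131.4 in KO-labelled CLP and 251.8 ± 12.8 in KO-labelled sham (SD, n = 3 each), a rise of 0.87 on the log2 scale (adjusted p = 0.00230). Cpe, which trims the cut ends, averaged 392.0 ± 47.4 in KO-labelled CLP and 634.0 ± 228.0 in KO-labelled sham (SD, n = 3 each). Its log2 difference was -0.64 (adjusted p = 0.0234), lost without array 2 or 3 of KO-labelled CLP or array 2 of KO-labelled sham. That call was also lost with the arrays centred on their medians or with only the 2 groups compared (adjusted p-values up to 0.116). With centring, 3 of the 8 were called higher and 0 lower after CLP in KO-labelled lung. Pam was the 1 gene of this list called between genotypes, where 13% of all genes were called higher after CLP and 4.87% after sham.

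All 12 signalling partners of CGRP and adrenomedullin receptors were tested, and after CLP in KO-labelled lung 2 rose and 5 fell, with a median of -0.37 on the log2 scale. Over all genes tested, 11.4% were called higher and 19.9% lower, with a median of -0.11. Those with the smallest p among the falls make or relay cAMP or quiet the receptor: Adcy9, an adenylyl cyclase, averaged 137.2 ± 36.6 in KO-labelled CLP and 324.4 ± 41.9 in KO-labelled sham (SD, n = 3 each; fall of 1.25, adjusted p = 0.000545). Prkaca, the catalytic chain of protein kinase A, averaged 441.7 ± 110.0 in KO-labelled CLP and 781.5 ± 46.4 in KO-labelled sham (SD, n = 3 each; fall of 0.84, adjusted p = 0.00132). With probe sets that share sequence left out, Prkaca differed by -0.37 (adjusted p = 0.102) and was not called. Arrb1, a beta-arrestin that uncouples receptors, fell by 0.81 (adjusted p = 0.00182), and Adcy6, another cyclase, by 0.64 (adjusted p = 0.00244). The fifth that fell was Creb1. The 2 that rose, Rcan1 (1.82) and Crem (1.42), a repressor that cAMP induces, were named after their values were seen. In KO-labelled CLP lung against wild type the same 2 were higher and 7 were lower, where 13% of all genes were called higher and 18.8% lower. In wild type the 1 called after CLP was Arrb2, the second beta-arrestin, which averaged 300.3 ± 16.7 after CLP and 173.0 ± 5.95 after sham (SD, n = 3 each; rise of 0.78, adjusted p = 0.0130), and which lost its call without any 1 wild-type CLP array or without wild-type sham array 1 or 3.

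Of 25 measured other neuropeptides and receptors, 14 were below the array median on all arrays and 9 were tested. After CLP in KO-labelled lung 1 rose and 2 fell, where 11.4% of all genes were called higher and 19.9% lower. Between genotypes 2 were lower after CLP (Npy and Sstr4) and 2 after sham (Grp and Npy), with 0 higher. Of all genes, 18.8% were called lower after CLP and 3.89% after sham. Npy, named after its values were seen, averaged 6.1 and 9.6 in KO-labelled CLP and sham, against 61.6 and 67.5 in wild type. It passed the filter only through its wild-type arrays, so its values are given with no test. Grp, the precursor of gastrin-releasing peptide, read 55.2, 87.7 and 92.2 in KO-labelled CLP, against 11.1, 7.36 and 33.7 in KO-labelled sham, and 65.4 to 82.4 on the 6 wild-type arrays. The low group was thus KO-labelled sham (log2 difference from CLP 2.15, adjusted p = 0.00128; from wild-type sham -2.12, adjusted p = 0.00289). Sstr4, a somatostatin receptor, read 24.7, 24.2 and 30.9 in KO-labelled CLP, against 176.8, 178.3 and 57.5 in KO-labelled sham (fall of 2.07, adjusted p = 0.00119). Without KO-labelled sham array 3 the log2 differences after CLP in KO-labelled lung were 2.67 for Grp and -2.60 for Sstr4, both called, and Sstr4 was then also called higher in KO-labelled than in wild-type sham (1.34). Npy1r, a neuropeptide Y receptor, averaged 19.1 ± 12.1 in KO-labelled CLP and 43.7 ± 12.6 in KO-labelled sham (SD, n = 3 each). Its difference of -1.19 (adjusted p = 0.0411) was called in 4 of the 12 fits that left out 1 array, those without KO-labelled CLP array 1, KO-labelled sham array 3 or wild-type sham array 2 or 3. Pulmonary neuroendocrine cells make such peptides, and 4 of the 6 markers of these cells measured were below the array median on all arrays. Their summed signal was 91.5 to 104.1 in KO-labelled CLP, 92.4 to 170.0 in KO-labelled sham, 170.4 to 220.1 in wild-type CLP and 171.8 to 185.1 in wild-type sham. This gap lay mostly in Piezo2, the 1 marker tested. It averaged 29.5 in KO-labelled CLP and 58.5 in KO-labelled sham, against 114.7 in wild-type CLP and 116.6 in wild-type sham. Piezo2 was called lower in KO-labelled lung after CLP (log2 difference -1.98, adjusted p = 0.00185) and not after sham (-1.03, adjusted p = 0.104). The part of these markers in the values of Grp and Sstr4 was not tested.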

How the data were processed

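Total RNA from 12 whole-lung samples was labelled with biotin and hybridised to 12 Affymetrix arrays, per the labels' protocols. The deposited values were linear signal intensities per probe set, made by the authors with software that the submitters' processing notes name as GCOS, MAS5 and Affymetrix Expression Console, without versions or roles. The mean between the lowest and highest 2% of signals was 150.001 on every array, so each had been scaled. The deposited table gave no detection calls.

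After 64 control probe sets were left out, 45037 remained. Signals were used as log2 of the value plus 3.48 (10% of 34.8, the middle value of the array medians), an addition that understates changes of dim genes. The filter kept a probe set whose signal passed the median of its array on 3 or more of 12 arrays, and 24540 were tested. The platform table gave 1 symbol to 34945 probe sets, several to 932 and none to 9160, and 34741 were matched to a RefSeq gene table (GRCm38.p6), used for names and chromosomes. Scaling to a common mean makes every value relative to the rest of its array.

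Groups were compared with limma 3.58.1 in R 4.3.3 (1 model of 4 group means, contrasts, moderated statistics with an intensity trend), with Benjamini-Hochberg adjustment over all probe sets tested in a comparison and calls at an adjusted p under 0.05. Every adjusted p printed is from this limma test. A gene is counted by its representative probe set. The script was tested on simulated data. The number of arrays, 3 per group, limits the precision.

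The 9 genes, the wider lists and the marker lists were chosen with earlier results of these data known. The naming rule takes all probe sets of the 9 genes, every called gene of the tachykinin and CGRP list, up to 4 genes with the smallest p in each CLP comparison of the other lists, and the 5 genes most like Tac1 and Calcrl. Alternatives were quantile normalisation, centring, another pseudocount, a floor, other filters, other moderation, array weights, a replicate block, only the groups compared, other choices of probe set, and each array left out.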

Additional observations from a re-analysis of the deposited data

Results flagged for a closer look

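In the test of the difference between CLP responses, 1.86% of all genes were called on the higher side and 3.13% on the lower. No member had a CLP response that was called different between the genotypes, but 6 genes of the wider lists did, each by the test of the difference itself (KO-labelled minus wild-type response, log2 scale). The value was 1.68 for Ramp3, 2.27 for Grp, -2.19 for Sstr4, -1.25 for Adcy9, -0.85 for Prkaca and -0.53 for Ide. The adjusted p-values were 0.0365 for Ramp3, 0.0325 for Grp, 0.0312 for Sstr4, 0.0249 for Adcy9, 0.0376 for Prkaca and 0.0493 for Ide. In wild type the CLP difference of 5 of them was within 0.12 of 0 on the log2 scale, Ramp3 being the exception (0.63). With 1 array left out, Ramp3, Grp, Ide and Prkaca were called only without KO-labelled CLP array 1 or KO-labelled sham array 3. Sstr4 was called without either of these or without KO-labelled CLP array 3, and Adcy9 without KO-labelled CLP array 1 or 3 or any KO-labelled sham array. Grp and Sstr4 were at their extremes in KO-labelled sham, where array 3 read 33.7 for Grp, against 11.1 and 7.36 on the others, and 57.5 for Sstr4, against 176.8 and 178.3.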

How the results depend on the processing

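The counts of members called in the 5 comparisons were within 1.5 times of the reported ones under most alternatives. After CLP in KO-labelled lung, 2 were called with only the 2 groups compared. Between genotypes after sham, 1 was called with a filter of 9 arrays, which leaves out Tac1. For the difference of responses, 4 were called with array weights and 1 with the replicate block, against none. Same-numbered arrays of different groups did not deviate together (correlations of deviations -0.105 to 0.119, with 2 of 18 above 0.1), so the numbers were not taken to pair samples, and the replicate block moved no count of all calls by over 1.5 times. With 1 array left out, members called ranged from 2 to 4 for CLP in KO-labelled lung, from 3 to 6 between genotypes after CLP, and from 0 to 2 for the difference of responses. Calls over all probe sets were 7169 for CLP in KO-labelled lung (2668 with only the 2 groups, 3971 as means per gene), 233 in wild type (1281 with only the 2 groups, 1311 with array weights, 141 as means per gene, 51 to 431 with 1 array left out), 7240 and 2049 between genotypes after CLP and sham (3914 and 1152 as means per gene, 4068 after sham with array weights, and with 1 array left out 4543 to 8970 and 1123 to 2588), and 997 for the difference of responses (5840 with array weights, 557 without the filter, 107 to 3288 with 1 array left out). Means per gene test fewer features. No called value of a member or named list gene changed sign. Of the alternative values in all, 2583 kept direction and call, 156 lost a call, 46 gained one and 57, none called, changed sign. Among the list genes whose responses differed between genotypes, Sstr4 lost its call under no alternative that kept all arrays, Ramp3 under no filter and no trend, Grp under no filter, and Adcy9 with the mean of the probe sets. Ide and Prkaca lost theirs under centring, no filter, no trend and the replicate block, Ide also under quantile normalisation and the mean of the probe sets, and Prkaca with shared-sequence probe sets left out. Signals near or below the array medians (Tacr1, Tac1 in wild type) limit what can be read of those transcripts.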
